A study of Caenorhabditis elegans with 22 samples.

Results

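The genes described here encode 6 serotonin receptors of Caenorhabditis elegans: ser-1, ser-4, ser-5, ser-7, mod-1 and lgc-50. They were chosen by gene symbol, and all 6 were found among the 19598 genes of the count table. Each also passed the filter on low counts that left 16431 genes for testing. RNA of whole adults was sequenced in 22 libraries. The ser-7(vq2) strain gave 3 libraries with serotonin and 3 with DMSO. The ser-5(vq1) strain gave 2 libraries with loxapine and 3 with DMSO. The wild-type strain N2 gave 3 libraries with serotonin, 3 with loxapine and 5 with DMSO. Serotonin was used at 5 mM and loxapine, a tricyclic antipsychotic drug, at 50 µM. Every group grew in liquid on killed OP50 bacteria, received 0.12 mM FUDR, a blocker of DNA synthesis, at the L4 larval stage, and was collected 72 h after the compound was added on the first day of adulthood. The sources used here do not describe what the alleles vq1 and vq2 change in the genes. They also do not say whether libraries came from separate cultures, so the p-values measure only the spread between these libraries.

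Serotonin acts in the worm on metabotropic receptors and on ion channels. Metabotropic receptors pass the signal to G proteins: ser-1 acts through the Gq pathway and is known for its part in egg laying, ser-4 acts through inhibitory G proteins, and ser-7 acts through Gs and is known for the serotonin response of the feeding organ, the pharynx. The product of ser-5 is also metabotropic and is known from feeding and avoidance behaviour. The other receptors are channels that serotonin opens directly: mod-1 encodes a chloride channel that slows locomotion near food, and lgc-50 encodes a cation channel known from learned avoidance of pathogens. The receptors are found mostly in neurons and muscle, so a measurement on whole animals mixes the cells that carry them with many that do not.

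Total counts per library ranged from 25652111 to 39765014, and each receptor gene held between 32 and 309 counts in a library, leaving out the strain in which that gene is mutated. Levels are given as CPM, counts scaled to a common library size after TMM adjustment. Some of the control libraries were unusually alike. The N2 DMSO replicates 2 and 5 differed from each other by a chi-square of 5.16 per degree of freedom and replicates 3 and 6 by 4.03, while any other pair of replicates differed by at least 12.6. The most unlike pair was N2 serotonin replicates 1 and 3, at 150.7. All 5 control libraries enter the values below, and counts of receptor genes with each alike pair of controls summed to 1 library are given where they differ. Over all genes, that sum took the count of genes past the threshold to 4860, against 6102 with the libraries kept apart, for serotonin in N2. It took it to 1129, against 3101, for loxapine in N2, and to 1583, against 2565, for the difference between ser-7 and N2 in the response to serotonin. Serotonin was dissolved in water and loxapine in DMSO, so a difference in vehicle cannot be told apart from the effect of serotonin. In whole-animal RNA, fewer cells of a type, less RNA per cell and a larger share from other tissues cannot be told apart either.

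The mutated genes were checked first. The ser-7 transcript gave 0, 0 and 0 counts in the ser-7 libraries with serotonin and 1, 0 and 1 counts in those with DMSO, against 36 to 106 counts in each of the 16 libraries of the other strains. The 2 counts over the 6 ser-7 libraries amounted to 0.385% of the N2 DMSO level (exact Poisson 95% interval 0.0467% to 1.39%, counting error only). With serotonin, where no count was seen, ser-7 was at least 45.3-fold lower in the ser-7 strain than in N2, with a floor of 3 counts over the group.

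The ser-5 transcript was low but present in its own mutant. It gave 6 and 21 counts in ser-5 libraries with loxapine and 8, 19 and 5 counts in those with DMSO, against 45 to 106 counts in each of the 17 remaining libraries. The higher values were those of replicate 2 under both treatments. The 59 counts, pooled over both treatments of the mutant, amounted to 19.4% of the N2 DMSO level (exact Poisson 95% interval 14.7% to 25.0%, counting error only). That interval leaves out the spread between the mutant libraries, which ran from 0.186 to 0.662 CPM, so it is too narrow for a difference between strains. The log2 fold change of ser-5 in the mutant was -2.23 ± 0.41 (SE, edgeR adjusted p = 0.0074) against N2 with loxapine. Against N2 with DMSO it was -2.58 ± 0.35 (SE, adjusted p = 0.00451). The call with loxapine ended without ser-5 loxapine replicate 1 (log2 fold change -1.62, adjusted p = 0.0896) and in a fit of the 2 groups alone (-2.25, 0.0593), and it stood without replicate 2 (-3.43, 0.0367). The call with DMSO ended when replicate 1 (-2.41, adjusted p = 0.147) or 3 (-2.41, 0.0883) of the mutant was left out, when only the 2 groups were fitted (-2.57, 0.0913), and when the N2 controls were limited to replicates 4 to 6 (-2.47, 0.0556). In the counts of receptor genes below, the mutated gene is left out of every comparison that involves its own mutant, which leaves 5 receptors there.

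All 6 transcripts were scarce in whole animals. The mean level of each over the libraries lay between the 18.1 percentile (ser-7, whose mean includes its own mutant) and the 40.3 percentile (lgc-50) of the 16431 genes tested. Per kilobase of exon in N2 DMSO libraries, ser-4 stood at 3.06 ± 0.384 CPM and lgc-50 at 2.75 ± 0.132 CPM per kb (SD, n = 5). The next were ser-7 at 1.33 ± 0.179, mod-1 at 1.13 ± 0.247, ser-5 at 1.12 ± 0.233 and ser-1 at 1.08 ± 0.144 CPM per kb. The inhibitory receptor gene ser-4 and the cation channel gene lgc-50 were thus the most abundant per length, and they held the top places in all 22 libraries. Their lowest N2 DMSO value was 2.46 CPM per kb and the highest of the other 4 genes was 1.52. Neither ser-4 and lgc-50, nor any neighbours among the other 4 genes, differed by more than the larger of their SDs in N2 DMSO libraries. Per length, ser-4 lay above lgc-50 in 4 of the 5 N2 DMSO libraries and in 9 of all 22.

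**Figure D1:**
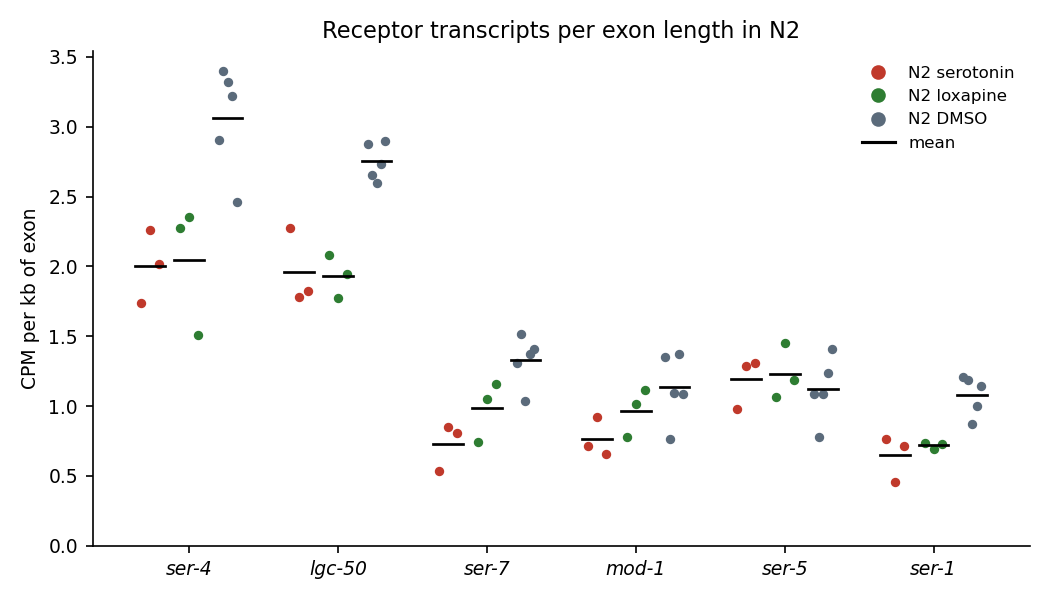
Levels of the 6 receptor genes in N2, in CPM per kb of exon on the vertical axis, with genes on the horizontal axis in the order of their N2 DMSO means; points are libraries and black bars are group means. In N2 DMSO libraries ser-4 and lgc-50 average 3.06 and 2.75 CPM per kb, and the other 4 genes lie between 1.08 and 1.33.

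The order of the genes was different in N2 with the compounds, where the means of ser-7, mod-1 and ser-1 were lower than with DMSO. The place that changed most was that of ser-5, whose own level did not differ beyond the spread. This gene averaged 1.19 ± 0.186 CPM per kb with serotonin (SD, n = 3), 1.23 ± 0.199 with loxapine (SD, n = 3) and 1.12 ± 0.233 with DMSO (SD, n = 5), so it ranked above ser-7, mod-1 and ser-1 with either compound, and above ser-1 alone with DMSO. With each compound the gap between ser-5 and the next gene was larger than both SDs. The next gene was mod-1 with serotonin, at 0.764 ± 0.140 CPM per kb, and ser-7 with loxapine, at 0.983 ± 0.217 CPM per kb (SD, n = 3 each).

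The first comparison asked how serotonin acts on these transcripts in N2. Of the 6 receptor genes, 4 fell and none rose: the Gq-linked ser-1, the inhibitory ser-4, the Gs-linked ser-7 and the channel gene lgc-50. Over all genes tested, 16.8% fell by the same test (edgeR quasi-likelihood with Benjamini-Hochberg adjustment, threshold 0.05). In both directions 6102 genes passed, and 3897 without N2 serotonin replicate 3. DESeq2 called the same 4 genes. The median log2 fold change of the 6 receptors was -0.59, beside -0.12 for all genes tested.

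The metabotropic receptor gene ser-1 had 1.69, 1.02 and 1.58 CPM in N2 serotonin libraries 1 to 3, against 1.92, 2.53, 2.67, 2.63 and 2.21 CPM in N2 DMSO libraries 2 to 6. All 3 serotonin libraries lay below all 5 DMSO libraries, and replicate 2 was the lowest. The share of all genes whose groups lay apart was not counted, here or below, so such separation is a description only. The log2 fold change was -0.74 ± 0.20 (SE, 95% interval -1.15 to -0.33, edgeR adjusted p = 0.0061), a level of 0.599 times that with DMSO. Within the 3 library series, runs of consecutive library numbers in the labels, the difference ranged from -1.10 to -0.56.

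The inhibitory receptor gene ser-4 had 2.64, 3.43 and 3.06 CPM with serotonin, against 5.04, 3.73, 4.41, 5.16 and 4.88 CPM with DMSO. The groups did not overlap. The log2 fold change was -0.61 ± 0.18 (SE, 95% interval -0.98 to -0.24, edgeR adjusted p = 0.00983), and the differences within library series ranged from -0.73 to -0.47.

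The gene of the pharyngeal feeding receptor, ser-7, had 0.999, 1.59 and 1.51 CPM with serotonin, against 1.95, 2.65, 2.46, 2.85 and 2.58 CPM with DMSO. Again every serotonin library lay below every DMSO library. Its log2 fold change was -0.87 ± 0.26 (SE, 95% interval -1.42 to -0.33, edgeR adjusted p = 0.0129). The call ended without N2 serotonin replicate 1, which held the lowest value (log2 fold change -0.68, adjusted p = 0.0587).

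Of the channels, lgc-50 had 5.04, 3.94 and 4.03 CPM with serotonin, against 5.75, 6.41, 6.37, 5.88 and 6.06 CPM with DMSO. The groups were apart, and the DMSO libraries were close together. Its log2 fold change was -0.49 ± 0.14 (SE, 95% interval -0.79 to -0.19, edgeR adjusted p = 0.0115).

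The chloride channel gene mod-1 had 1.25, 1.62 and 1.15 CPM with serotonin, against 1.92, 1.91, 2.38, 1.34 and 2.41 CPM with DMSO. Most DMSO libraries were higher, but DMSO replicate 5 lay among the serotonin libraries. The log2 fold change of -0.57 ± 0.26 (SE, 95% interval -1.10 to -0.03) did not pass the threshold (edgeR adjusted p = 0.0914), and it passed without DMSO replicate 5 (0.0473).

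The metabotropic receptor gene ser-5 showed no difference beyond the spread. It had 1.59, 2.10 and 2.12 CPM with serotonin, against 1.76, 2.29, 1.77, 1.26 and 2.01 CPM with DMSO, and the groups overlapped fully. Its log2 fold change was 0.09 ± 0.28 (SE, 95% interval -0.49 to 0.67, edgeR adjusted p = 0.832). As a description, ser-5 held 12.0% to 15.8% of the summed counts of the 6 genes in N2 serotonin libraries, against 6.60% to 11.7% in N2 DMSO libraries.

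**Figure D2:**
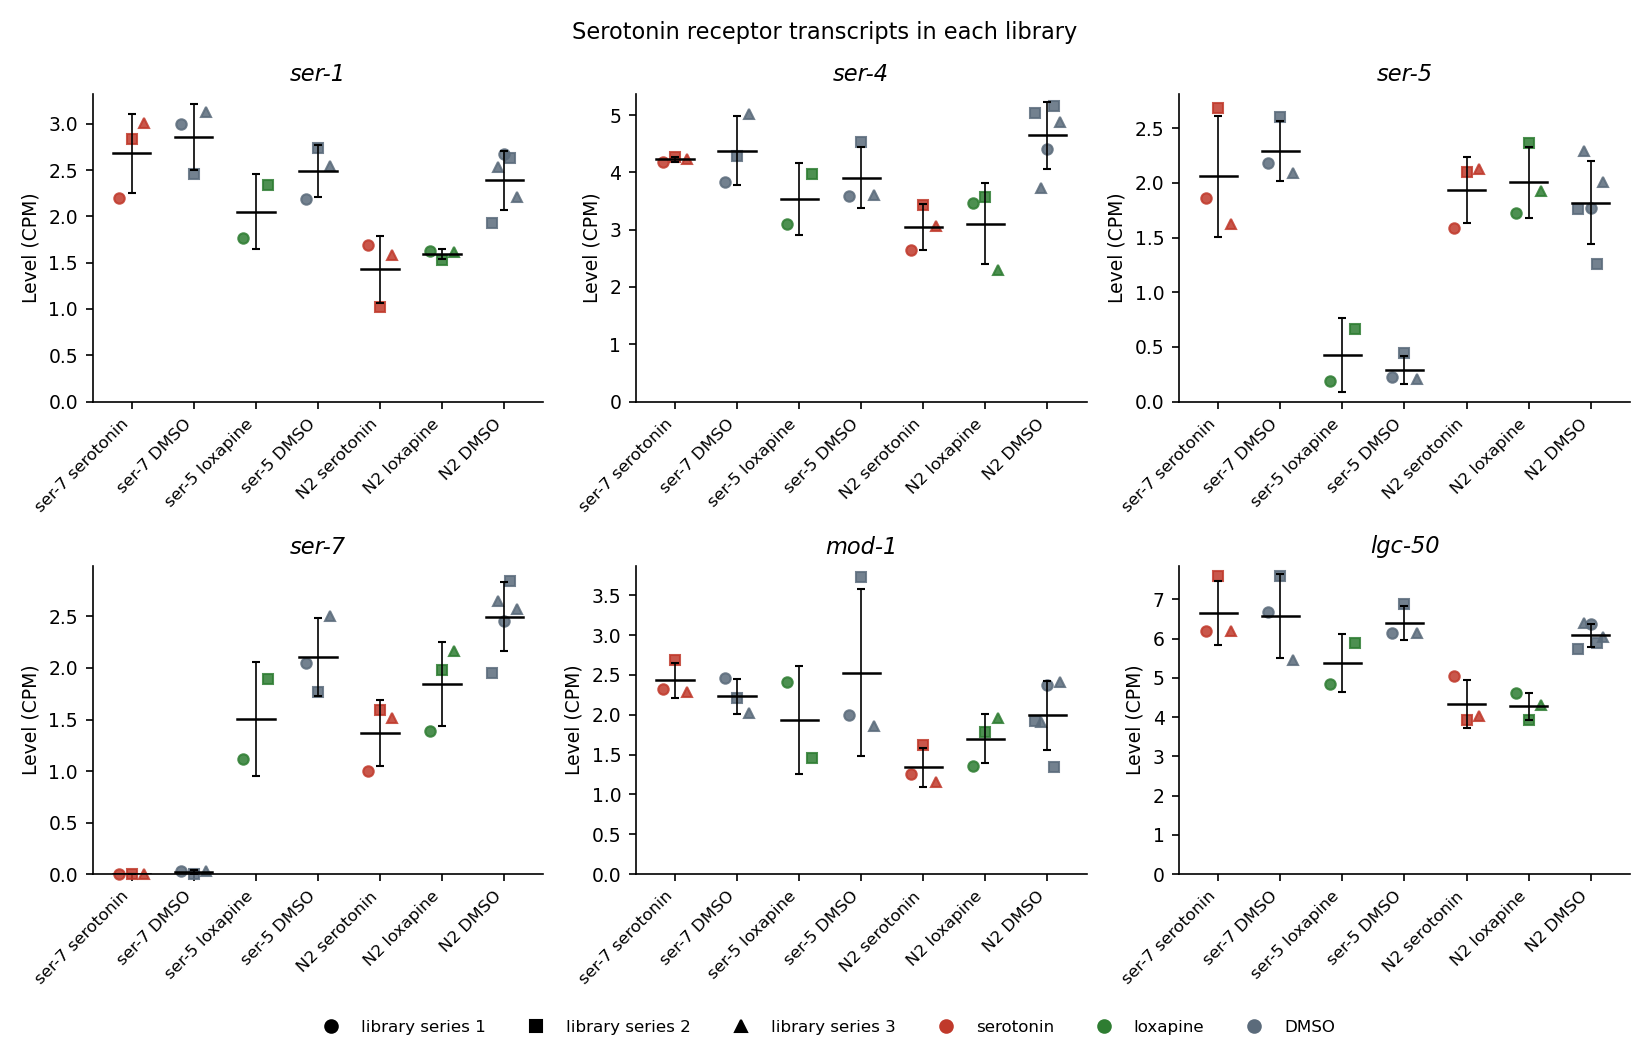
Levels of each receptor gene in CPM (vertical axis) in the 22 libraries, by strain and treatment (horizontal axis); symbols mark the library series, colours the treatment, and black bars the mean and SD. In N2 the serotonin libraries of ser-1, ser-4, ser-7 and lgc-50 all lie below the 5 DMSO libraries, while ser-7 is at 0 to 1 counts in its own mutant.

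The calls with serotonin differed between the fits with a block. With the library series as a block, a fit that keeps all 5 controls, the same 4 receptors passed, with log2 fold changes of -0.74 for ser-1 (edgeR adjusted p = 0.00493), -0.60 for ser-4 (0.00453), -0.85 for ser-7 (0.0050) and -0.49 for lgc-50 (0.00729). A replicate block used the replicate number in the sample titles. It left N2 DMSO replicates 4 to 6 without weight, because no other library shares their numbers, and 0 of the 6 receptors passed. The blocked log2 fold changes were -0.59 for ser-1 (edgeR adjusted p = 0.0841), -0.49 for ser-4 (0.0866), -0.60 for ser-7 (0.123) and -0.49 for lgc-50 (0.0539). The same count was 0 with N2 DMSO replicates 2 and 3 only, and 4 with each near-duplicate pair summed.

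Marker genes of several tissues were compared in the same way. Those of neurons and muscle mostly fell, as the receptors did, while germline genes rose and intestinal genes were mixed. Among all genes tested, 16.8% fell and 20.4% rose. Of 20 genes used throughout the nervous system, 14 fell with serotonin and none rose, with a median log2 fold change of -0.55. Examples were sbt-1 (-0.73 ± 0.09, SE), whose product helps to process neuropeptides, and egl-3 (-0.78 ± 0.12), a proprotein convertase. Their summed level was 891 to 1007 CPM in N2 serotonin libraries, against 1123 to 1346 CPM in N2 DMSO libraries. Of 15 body wall muscle genes 14 fell (median -0.81, summed level 2924 to 3612 CPM, against 5316 to 6326 CPM with DMSO). Of 8 pharyngeal muscle genes 6 fell (median -0.94, summed level 190 to 218 CPM, against 310 to 427 CPM with DMSO). All 13 germline genes measured rose (median 0.69, summed level 5928 to 9525 CPM, against 3972 to 4845 CPM with DMSO). Of 8 intestinal genes measured, 1 rose and 2 fell (median -0.19, summed level 2105 to 5979 CPM, against 2490 to 3277 CPM with DMSO). No marker was at 0 in any library. The part of these tissues in the receptor values was not tested.

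The list medians were -0.59 for the receptors, -0.55 for the pan-neuronal genes, -0.81 for body wall muscle and -0.94 for pharyngeal muscle. When the libraries were scaled so that the pan-neuronal genes stayed level, a setting added after the data had been seen, 0 of the 6 receptors passed. The log2 fold changes with serotonin were then -0.27 for ser-1, -0.13 for ser-4, -0.40 for ser-7, -0.11 for mod-1 and -0.02 for lgc-50. That of ser-5 was 0.55 ± 0.27 (SE, edgeR adjusted p = 0.116). This scaling moved the median of all genes to 0.35, against -0.12 with TMM, and 92.0% of all calls were then higher, against 54.8% with TMM. Before scaling, the pan-neuronal and receptor medians lay on the same side of 0, so the scaling itself draws the receptor median toward 0. The loss of receptor calls under it, here and below, is therefore no test of a cause.

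Other genes of serotonin signalling were compared as lists, beside 16.8% of all genes tested that fell with serotonin and 20.4% that rose. Of 11 genes of serotonin synthesis, packing, uptake and breakdown, 3 fell with serotonin and none rose (median log2 fold change -0.26). They were amx-2, for a monoamine oxidase (-0.40 ± 0.09, SE, edgeR adjusted p = 0.00249), mod-5, for the serotonin reuptake transporter (-0.52 ± 0.17, adjusted p = 0.0224), and cat-1, for the vesicular monoamine transporter (-0.58 ± 0.20, adjusted p = 0.0311). The synthesis gene tph-1, for tryptophan hydroxylase, had a log2 fold change of 0.14 ± 0.31 (SE, adjusted p = 0.752).

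With serotonin, 16.8% of all genes tested fell and 20.4% rose. Of 22 genes of the G protein pathways below the metabotropic receptors, 7 fell with serotonin and none rose (median -0.31). Among them were egl-8, for the phospholipase C of the Gq pathway (-0.48 ± 0.11, SE), pde-4, for a cyclic AMP phosphodiesterase (-0.72 ± 0.17), kin-1, for the catalytic subunit of protein kinase A (-0.67 ± 0.17), and kin-2, for its regulatory subunit (-0.52 ± 0.16). The genes of the G protein alpha subunits did not pass the threshold. Their log2 fold changes were -0.37 ± 0.17 for egl-30 (Gq), -0.43 ± 0.23 for gsa-1 (Gs) and -0.02 ± 0.07 for goa-1 (inhibitory).

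Of 12 genes that link serotonin to fat metabolism, 2 rose and 3 fell with serotonin (median -0.35), beside 20.4% of all genes that rose and 16.8% that fell. Those that rose were kat-1, for a thiolase of fatty acid oxidation (0.49 ± 0.12, SE), and atgl-1, for the adipose triglyceride lipase (0.34 ± 0.10). Those that fell included octr-1, for an octopamine receptor (-1.02 ± 0.25), and nhr-76, for a nuclear receptor (-0.47 ± 0.11).

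Loxapine in N2 gave a similar set of values. Of the 6 receptor genes, ser-1, ser-4 and lgc-50 fell and none rose, beside 8.38% of all genes tested that fell by the same edgeR test. In both directions 3101 genes passed, against 556 without N2 loxapine replicate 2, 1618 without N2 loxapine replicate 3, 1759 without N2 DMSO replicate 2 and 1779 without N2 DMSO replicate 5. DESeq2 called the same 3 receptor genes. The median log2 fold change of the 6 was -0.47, against -0.07 for all genes. The loxapine and serotonin comparisons share their 5 DMSO libraries, so the likeness of their values carries no weight of its own.

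The libraries of ser-1 with loxapine were close together, at 1.62, 1.53 and 1.62 CPM, all below the N2 DMSO libraries given above. Its log2 fold change was -0.59 ± 0.20 (SE, edgeR adjusted p = 0.0417). For ser-4 the values were 3.46, 3.57 and 2.29 CPM, again below every DMSO library, with replicate 3 the lowest (-0.58 ± 0.18, adjusted p = 0.0277). For lgc-50 they were 4.61, 3.92 and 4.31 CPM, also apart from the DMSO libraries (-0.51 ± 0.14, adjusted p = 0.0200).

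The other 3 receptor genes overlapped with DMSO. With loxapine ser-7 had 1.39, 1.98 and 2.17 CPM, and its log2 fold change was -0.44 ± 0.25 (SE, 95% interval -0.97 to 0.09, edgeR adjusted p = 0.233). The chloride channel gene mod-1 had 1.36, 1.79 and 1.96 CPM (-0.23 ± 0.25, 95% interval -0.75 to 0.29, adjusted p = 0.556). The values of ser-5 were 1.73, 2.36 and 1.93 CPM (0.14 ± 0.28, 95% interval -0.44 to 0.72, adjusted p = 0.762).

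The loxapine calls ended in many settings. Of 18 alternatives, ser-1 passed in 6, ser-4 in 8 and lgc-50 in 11. With the library series as a block the same 3 genes passed (edgeR adjusted p = 0.0281 for ser-1, 0.0117 for ser-4 and 0.00964 for lgc-50). With the replicate block 0 of 6 passed (edgeR adjusted p = 0.228 for ser-1, 0.143 for ser-4 and 0.0652 for lgc-50). None passed with the near-duplicate controls summed, without loxapine replicate 2 or without loxapine replicate 3, and only lgc-50 passed without N2 DMSO replicate 5. With the controls summed the log2 fold changes were -0.61 for ser-1, -0.56 for ser-4 and -0.52 for lgc-50. Without loxapine replicate 2 they were -0.56 for ser-1, -0.69 for ser-4 and -0.45 for lgc-50. Without replicate 3 they were -0.60 for ser-1, -0.40 for ser-4 and -0.51 for lgc-50. The direction of the 3 genes was negative in each of the 3 library series, with differences of -0.70 to -0.53 for ser-1, -0.88 to -0.35 for ser-4 and -0.56 to -0.46 for lgc-50.

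With loxapine, 8.38% of all genes tested fell and 10.5% rose. Of the 20 pan-neuronal genes, 6 fell with loxapine and none rose (median log2 fold change -0.34, summed level 915 to 1047 CPM, against 1123 to 1346 CPM with DMSO). Of 15 body wall muscle genes 13 fell (median -0.59), of 8 pharyngeal muscle genes 2 fell (median -0.27), and of 13 germline genes 8 rose (median 0.45). The 8 intestinal genes ranged from -0.37 to 0.67. Scaled to the pan-neuronal genes, 0 of the 6 receptors passed, and the log2 fold changes were -0.31 for ser-1, -0.29 for ser-4 and -0.23 for lgc-50. The value of mod-1 turned to 0.05 under that scaling, 92.4% of all calls were higher, against 55.6% with TMM, and the median of all genes was 0.21. The part of these tissues in the receptor values was not tested.

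In the synthesis and uptake list loxapine raised cat-4, for GTP cyclohydrolase, which supplies the cofactor of tryptophan hydroxylase (0.76 ± 0.18, SE, edgeR adjusted p = 0.00941). It lowered mod-5 (-0.61 ± 0.17, adjusted p = 0.0212) and amx-2 (-0.29 ± 0.09, adjusted p = 0.0394), so 1 gene rose and 2 fell of 11, beside 10.5% of all genes that rose and 8.38% that fell. Of the 22 G protein pathway genes 3 fell and none rose. They were egl-10, for a regulator of G protein signalling (-0.77 ± 0.16), egl-8 (-0.45 ± 0.11) and gsa-1, for the Gs alpha subunit (-0.74 ± 0.24, adjusted p = 0.0338). The 12 genes of the fat axis ranged from -0.55 to 0.30, with a median of -0.12. For either compound, the calls in the pathway lists are those of the main fit, and their alternatives were not examined. With the near-duplicate controls summed, the loxapine count over all genes was 1129, against 3101.

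**Figure D3:**
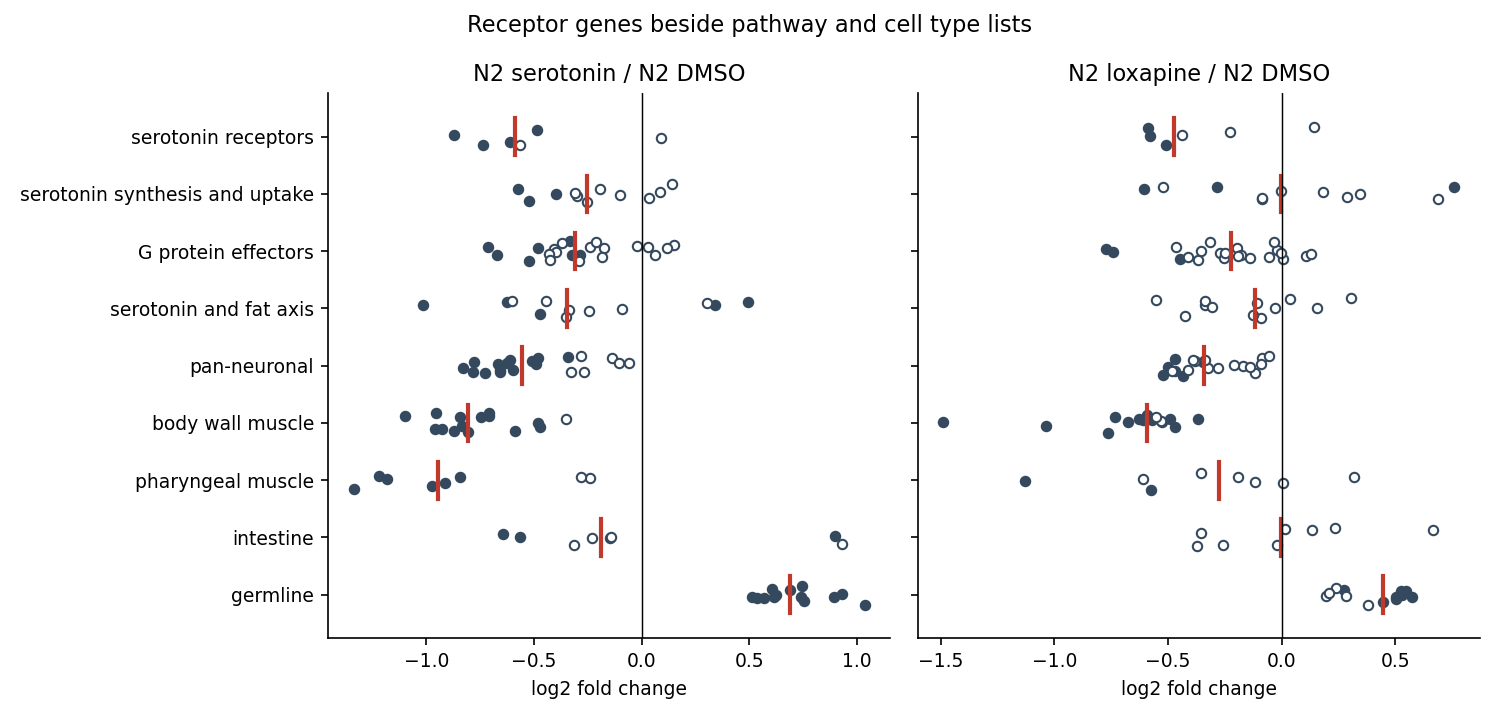
log2 fold changes (horizontal axis) of the receptor genes and of the pathway and marker lists (rows) for serotonin and loxapine in N2; each point is a gene, filled where it passed the threshold, and red bars are list medians. The list medians for serotonin and for loxapine are -0.59 and -0.47 for the receptors, -0.55 and -0.34 for the pan-neuronal genes, and -0.81 and -0.59 for the body wall muscle genes.

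Set directly against loxapine in N2, serotonin gave no receptor call: 0 of 6 passed with edgeR, 0 with DESeq2 and 0 at an unadjusted p under 0.05, beside 1.5% of all genes that passed, or 246 genes, a count that lay between 33 (without N2 loxapine replicate 2) and 1437 (without N2 serotonin replicate 1) when 1 library was left out. The log2 difference, serotonin over loxapine, was -0.44 ± 0.29 for ser-7 (SE, 95% interval -1.04 to 0.16) and -0.34 ± 0.29 for mod-1 (95% interval -0.93 to 0.26). For the other 4 genes it lay between -0.15 and 0.02. The compounds differed in dose and vehicle.

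In the ser-7 strain, serotonin gave no receptor call. Of the 5 receptors, 0 passed with edgeR, 0 with DESeq2 and 0 at an unadjusted p under 0.05, and 0% of all genes passed in this comparison. With the library series as a block, that background was 10 genes. The receptor log2 fold changes ran from -0.15 to 0.12 with a median of -0.05.

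The values of ser-1 were 2.19, 2.84 and 3.00 CPM in ser-7 serotonin libraries, against 3.00, 2.46 and 3.13 CPM in ser-7 DMSO libraries, and the groups overlapped. The log2 fold change was -0.10 ± 0.21 (SE, 95% interval -0.53 to 0.34). For ser-4 the serotonin libraries were close together, at 4.19, 4.28 and 4.23 CPM, against 3.83, 4.28 and 5.02 CPM (-0.05 ± 0.19, 95% interval -0.45 to 0.35). The cation channel gene lgc-50 had 6.20, 7.60 and 6.19 CPM with serotonin, against 6.69, 7.59 and 5.45 CPM with DMSO (0.02 ± 0.16, 95% interval -0.31 to 0.34). Replicate 2 was the highest for lgc-50 under both treatments. The 95% intervals of mod-1 (-0.45 to 0.69) and ser-5 (-0.80 to 0.49) were wider.

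The difference between the strains in the response to serotonin was tested as an interaction, ser-7 minus N2. Of the 5 receptors 0 passed with edgeR and 0 with DESeq2, while 3 had an unadjusted p under 0.05, and 15.6% of all genes passed, or 2565 genes. That background was 4490 genes without N2 serotonin replicate 1, 1203 without N2 serotonin replicate 3 and 1644 without ser-7 serotonin replicate 1. The differences of log2 fold change were 0.64 ± 0.29 for ser-1 (SE, edgeR adjusted p = 0.134), 0.57 ± 0.26 for ser-4 (0.146) and 0.50 ± 0.21 for lgc-50 (0.112). For mod-1 it was 0.69 ± 0.38 (0.226) and for ser-5 -0.24 ± 0.42 (0.745). The lgc-50 difference passed without N2 serotonin replicate 1 (0.63, adjusted p = 0.0346). The fall of ser-1, ser-4 and lgc-50 thus passed the threshold in N2 alone, while its difference between the strains did not.

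**Figure D4:**
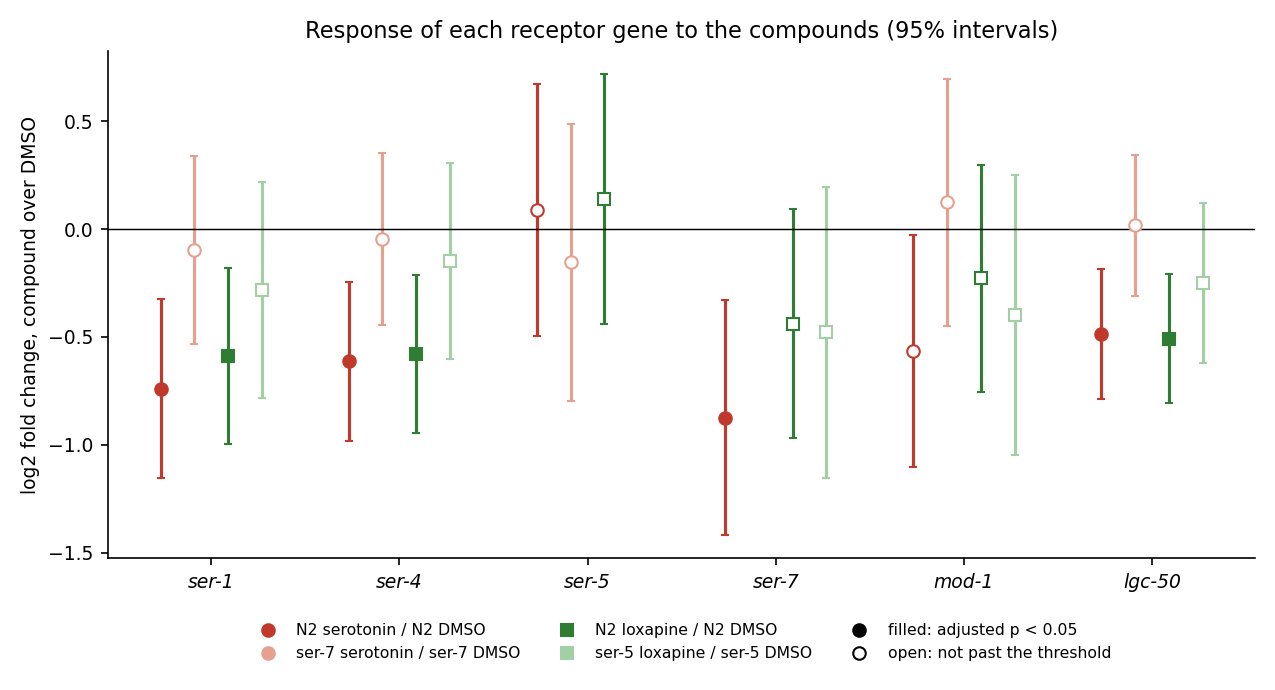
log2 fold changes, compound over DMSO (vertical axis), of each receptor gene (horizontal axis) in N2 and in the mutants, with 95% intervals; filled symbols passed the threshold and the mutated gene is left out of its own strain. The ser-7 strain's values lie between -0.15 and 0.12, and the N2 serotonin values of 5 genes between -0.87 and -0.49.

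With serotonin present, ser-7 animals had more of 3 receptor transcripts than N2 animals. Of the 5 receptors ser-1, mod-1 and lgc-50 were higher and none lower, beside 21.1% of all genes tested that were higher. DESeq2 called the same 3. The N2 serotonin libraries are those of the first comparison, so these calls are not independent of it.

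Mean levels of ser-1 were 2.68 ± 0.427 CPM in ser-7 serotonin libraries and 1.43 ± 0.362 CPM in N2 serotonin libraries (SD, n = 3 each). The log2 fold change was 0.90 ± 0.22 (SE, edgeR adjusted p = 0.00258). For mod-1 the means were 2.43 ± 0.224 CPM in ser-7 and 1.34 ± 0.246 CPM in N2 (log2 fold change 0.85 ± 0.28, SE, adjusted p = 0.0196). For lgc-50 they were 6.67 ± 0.814 CPM in ser-7 and 4.34 ± 0.613 CPM in N2 (0.62 ± 0.16, adjusted p = 0.00408). In all of these genes every ser-7 library lay above every N2 library, and the share of all genes that did so was not counted.

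The same separation was seen for ser-4, at 4.23 ± 0.0444 CPM in ser-7 and 3.04 ± 0.397 CPM in N2 libraries (SD, n = 3 each), but its log2 fold change of 0.48 ± 0.19 (SE) missed the threshold (edgeR adjusted p = 0.0532). It passed with either block, the replicate number (0.0409) or the library series (0.0275), and each brought the count to 4 of 5. The groups of ser-5 overlapped (0.10 ± 0.31, 95% interval -0.56 to 0.75, adjusted p = 0.820). Among all genes tested, 21.1% were higher and 21.8% lower in ser-7. Of the 20 pan-neuronal genes 12 were higher in ser-7 with serotonin and none lower (median 0.50, summed level 1237 to 1282 CPM, against 891 to 1007 CPM in N2). Of 15 body wall muscle genes 11 were higher (median 0.50, summed level 4462 to 4818 CPM in ser-7, against 2924 to 3612 CPM in N2), and of 8 pharyngeal muscle genes 6 were higher (median 1.03, summed level 305 to 348 CPM, against 190 to 218 CPM). All 13 germline genes were lower (median -0.91, summed level 3308 to 3706 CPM in ser-7, against 5928 to 9525 CPM in N2). Of 8 intestinal genes 3 were higher and 4 lower (median -0.62, summed level 1769 to 2098 CPM, against 2105 to 5979 CPM). Scaled to the pan-neuronal genes, 0 of the 5 receptors passed, with log2 fold changes of 0.49 for ser-1, 0.44 for mod-1 and 0.21 for lgc-50, and -0.33 for ser-5. Under that scaling 17.0% of all calls were higher, against 49.2% with TMM, and the median of all genes was -0.29, against 0.12. The part of these tissues in the receptor values was likewise not tested.

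Without a compound, neither mutation came with a call in the other receptor genes. In ser-7 against N2 with DMSO, 0 of 5 passed with edgeR, 0 with DESeq2 and 0 at an unadjusted p under 0.05, beside 1.2% of all genes, or 197 genes. That background was 2 genes without ser-7 DMSO replicate 1, 16 without replicate 2, 3 with the replicate block and 4 with the near-duplicate controls summed, and 848 with the library series as a block. Leaving out 1 N2 DMSO library gave 64 (replicate 3), 70 (replicate 6), 103 (replicate 4), 116 (replicate 5) or 120 (replicate 2). The log2 fold changes ran from -0.09 for ser-4 (95% interval -0.44 to 0.27) to 0.34 for ser-5 (95% interval -0.23 to 0.91). In ser-5 against N2 with DMSO the counts were likewise 0, 0 and 0 of 5, beside 0.00609% of all genes, which was the mutated ser-5 gene itself, and 0 genes passed without ser-5 DMSO replicate 1 or 3. The log2 fold changes ran from -0.25 for ser-7 (95% interval -0.78 to 0.27) to 0.36 for mod-1 (95% interval -0.15 to 0.86).

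The mod-1 value in the ser-5 strain came from 1 library. It had 1.99, 3.73 and 1.86 CPM in ser-5 DMSO replicates 1 to 3, or 71, 161 and 46 counts, against 1.34 to 2.41 CPM in N2 DMSO libraries. Replicate 2 was the highest of all 22 libraries for this gene. Across its groups mod-1 also had the largest spread of the 6 genes relative to counting error, with a chi-square of 4.07 per degree of freedom, against 1.69 for ser-1, the smallest.

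In the ser-5 strain loxapine gave no receptor call. Of 5 receptors 0 passed with edgeR, 0 with DESeq2 and 0 at an unadjusted p under 0.05, beside 0.0487% of all genes, or 8 genes, and 3 without ser-5 loxapine replicate 1. All 5 log2 fold changes were negative, with a median of -0.28. The cation channel gene lgc-50 had 4.86 and 5.90 CPM in ser-5 loxapine libraries, against 6.14, 6.89 and 6.15 CPM in ser-5 DMSO libraries (-0.25 ± 0.18, SE, 95% interval -0.62 to 0.12, edgeR adjusted p = 0.9998). It was the only gene of the 5 whose groups did not overlap. With so few libraries, and the share of all genes that did so not counted, this is a description only. For ser-1 the values were 1.76 and 2.33 CPM, against 2.19, 2.74 and 2.55 CPM (-0.28 ± 0.24, 95% interval -0.78 to 0.22).

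For ser-4 the loxapine libraries of the ser-5 strain had 3.09 and 3.97 CPM, against 3.59, 4.52 and 3.60 CPM with DMSO (-0.15 ± 0.22, 95% interval -0.60 to 0.31). Those of ser-7 had 1.11 and 1.89 CPM, against 2.05, 1.76 and 2.51 CPM (-0.48 ± 0.32, 95% interval -1.15 to 0.19). The values of mod-1 were 2.41 and 1.45 CPM, against 1.99, 3.73 and 1.86 CPM (-0.40 ± 0.31, 95% interval -1.05 to 0.25). The intervals of all 5 genes include both 0 and the N2 loxapine values of the same genes.

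Tests between the strains gave the same counts for loxapine. In ser-5 against N2, both with loxapine, 0 of 5 receptors passed with edgeR, 0 with DESeq2 and 0 at an unadjusted p under 0.05, beside 5.49% of all genes, or 902 genes. That background was 2 genes without ser-5 loxapine replicate 2 and 74 without replicate 1. It was 1684, 125 and 218 genes without N2 loxapine replicates 1, 2 and 3 in that order, and 2037 with the library series as a block. The log2 fold changes ran from -0.29 for ser-7 (95% interval -0.96 to 0.38) to 0.36 for ser-1 (95% interval -0.14 to 0.87). As an interaction, ser-5 minus N2, 0 of 5 passed with either tool and 0 at an unadjusted p under 0.05, beside 0% of all genes. That background was 0 to 6 genes when 1 library was left out, 19 with DESeq2 and 43 with the library series as a block. The receptor differences ran from -0.17 ± 0.40 for mod-1 to 0.43 ± 0.28 for ser-4 (SE).

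Over the groups, the levels of the receptors ranked as follows. The highest means of ser-1 were those of ser-7 with DMSO (2.86 ± 0.356 CPM, SD, n = 3) and ser-7 with serotonin, and the lowest were N2 with loxapine (1.59 ± 0.0524 CPM, n = 3) and N2 with serotonin. The gap between ser-5 with loxapine and N2 with loxapine was the single step larger than both SDs. For lgc-50 the step above N2 with serotonin was likewise the only one of that size, with both N2 compound groups below it and all other groups above it. For ser-7, outside its mutant, the step was that between N2 DMSO and ser-5 DMSO, at 2.50 ± 0.336 (n = 5) and 2.11 ± 0.376 CPM (n = 3). For mod-1 it was the step between N2 with loxapine and N2 with serotonin. No neighbours in the order of ser-4 or ser-5 were that far apart. The lowest mean of ser-4 was 3.04 ± 0.397 CPM in N2 with serotonin (n = 3) and the highest 4.65 ± 0.583 CPM in N2 with DMSO (n = 5). Outside its own mutant, the highest mean of ser-5 was 2.29 ± 0.275 CPM in ser-7 with DMSO (n = 3) and the lowest 1.82 ± 0.379 CPM in N2 with DMSO (n = 5).

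Among 12992 other genes whose mean log2 CPM was 0 or more, those whose levels were most like a receptor's were named by Pearson's r of log2 CPM over the libraries outside that gene's own mutant, as a description of libraries that share groups and series. The genes nearest to ser-1 over 22 libraries were pfn-3 (r = 0.907), npr-16 (0.900) and twk-49 (0.898), and those nearest to lgc-50 were tep-1 (0.908), F53A9.2 (0.908) and crm-1 (0.906). For ser-4 they were F09C3.2 (0.871), nep-11 (0.825) and scrm-1 (0.824), and for mod-1 R10E4.6 (0.820), cpna-4 (0.809) and egl-23 (0.805). Over 16 libraries ser-7 was nearest to T11G6.3 (0.899), C39D10.8 (0.882) and Y17G9A.4 (0.868). Over 17 libraries ser-5 was nearest to Y53C12B.1 (0.802), R02F2.7 (0.786) and Y45F10D.7 (0.779), the lowest top value of the 6 receptors. No gene is named for more than 1 receptor.

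The receptor genes lie apart in the genome (Ensembl release 115, WBcel235 assembly). The gene ser-1 spans 16579745 to 16587624 on chromosome X, plus strand, and ser-7 spans 2673572 to 2682384 on the same chromosome and strand. The gene ser-4 spans 1723198 to 1733101 on chromosome III and lgc-50 spans 7391090 to 7395454, both on the minus strand. The gene mod-1 spans 8909704 to 8914040 on chromosome V, minus strand, and ser-5 spans 8384931 to 8387039 on chromosome I, plus strand. All are annotated as protein-coding, with 6 to 11 exon blocks.

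Some of them overlap other genes, and the strand setting of the authors' counting is not given in the sources used here. An exon of lgc-50 shares 46 bases with an exon of trd-1 on the opposite strand. That gene rose with serotonin in N2 by a log2 fold change of 0.50 ± 0.12 (SE, edgeR adjusted p = 0.00206), the opposite direction to lgc-50, and it stood at 34.9 CPM in N2 DMSO libraries. Exons of ser-7 and T14G11.5 also overlap, as do those of mod-1 and K06C4.20, both noncoding RNA genes on the opposite strand. The gene spans share 128 and 150 bases, and neither RNA gene is in the count table. The ser-5 gene lies within T19A6.1, on the opposite strand and with no shared exon. T19A6.1 stood at 79.8 CPM and rose with serotonin in N2 (0.30 ± 0.10, adjusted p = 0.0203). Reads of such pairs may not be separable, and the part of T19A6.1 in the ser-5 counts was not tested.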

How the data were processed

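The deposited counts, reads per gene, came in 1 table of whole numbers without scaling, per the file headers. Libraries were single reads of 100 nucleotides, per the labels' protocols. How the authors aligned and counted reads, and on which genome build, is not given in the sources used here. Of the columns, 0 belonged to no sample. Groups follow strain and treatment. In R 4.3.3, edgeR 4.0.16 filtered genes (minimum count 10, minimum total 15; 16431 of 19598 kept), applied TMM factors and ran its robust quasi-likelihood test in a joint fit of all 7 groups, with Benjamini-Hochberg adjustment over all genes tested. Log2 CPM used a prior count of 2. DESeq2 1.42.0 was an alternative, with RLE factors, no filter, the compared groups only, replicate and series blocks, subsets of the controls and leaving out each library. The steps were tested on simulated data. The receptors and gene lists were chosen with earlier results of these data known. Named genes are all 6 receptors, up to 4 called genes per pathway list and compound comparison by smallest p, up to 2 examples per marker list, and the 3 genes most like each receptor. The genes tph-1, egl-30, gsa-1 (with serotonin), goa-1, trd-1 and T19A6.1 were added after their values were seen.

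Replicate numbers are those in the sample titles, and their use to pair libraries across groups is an inference. Across groups, 51 pairs of libraries share a replicate number. Their deviations from the group means correlated at -0.203 to 0.743 (median 0.374), and 38 pairs exceeded 0.1. Pairs of the same library series had a median of 0.369 and those of other series -0.207.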

Additional observations from a re-analysis of the deposited data

How the results depend on the processing

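In N2 with serotonin against DMSO, the 4 receptor calls became 0 with the replicate block, 0 with N2 DMSO replicates 2 and 3 only and 0 when the libraries were scaled to the pan-neuronal genes (a setting chosen after seeing the data), and 2 to 5 when 1 library was left out (2, ser-4 and ser-7, without N2 serotonin replicate 2). In N2 with loxapine against DMSO, the 3 calls became 0 with the replicate block, 0 with near-duplicate controls summed, 0 against N2 DMSO replicates 2 and 3 alone, 0 against replicates 4 to 6 alone, 0 when scaled to the pan-neuronal genes and 0 to 3 when 1 library was left out. In ser-7 against N2, both with serotonin, the 3 calls became 0 when scaled to the pan-neuronal genes and lay between 2 and 4 when 1 library was left out. The interaction for serotonin gave 0 calls, and 0 to 1 when 1 library was left out. With the library series as a block, which keeps all 5 controls, these counts were 4 for serotonin in N2, 3 for loxapine in N2 and 4 for ser-7 against N2 with serotonin. The cause of the losses was not tested; fewer controls enter the fits with subsets and with the replicate block. The block ended no other call and added ser-4 in ser-7 against N2 with serotonin. The 10 called receptor results kept their sign in all 165 alternative values and remained past the threshold in 114. Levels of 32 to 309 counts per library limit the size of change that can be seen.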
